A study of Mus musculus with 6 samples.

Results

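The SLAM family is a group of cell surface receptors of the immunoglobulin superfamily. Its 9 genes (Cd244a, Slamf1, Slamf6, Slamf7, Slamf8, Slamf9, Cd84, Ly9 and Cd48) were taken by symbol from a deposited table of 57180 mouse genes, and all 9 were found there and passed the filter on low counts. The samples were bulk RNA-seq libraries of liver cells sorted as CD3- NK1.1+ and then split by surface CD36, a scavenger receptor that takes up long-chain fatty acids. There were 3 libraries of the CD36+ fraction and 3 of the CD36- fraction. All mice were male C57BL/6J animals 6 to 8 weeks old with liver fibrosis induced by carbon tetrachloride, so both fractions carried the same treatment, and no fraction from untreated liver was analysed here. Cells were collected 48 h after the final dose of a course that lasted 4 weeks, with 2 doses each week of carbon tetrachloride diluted to 20% in olive oil and given into the peritoneum at 2.5 ml/kg. The series describes the libraries as biological triplicates but does not say whether the fractions of 1 number came from the same mice or how many mice were pooled. The question for the family was which of these receptors differed in transcript level between the CD36+ and CD36- fractions.

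SLAM receptors sit on blood cells and adjust how strongly lymphocytes and myeloid cells respond to their neighbours. Most of them bind a copy of themselves on another cell, whereas CD244 (2B4) binds CD48, a glycolipid-anchored protein that also binds CD2. Tyrosine motifs in the tails of most members recruit the small adaptors SAP (Sh2d1a) and EAT-2 (Sh2d1b1), and SAP in turn brings in the kinase Fyn. In natural killer (NK) cells, 2B4 and SLAMF7 (CRACC) are the best known members and can trigger or restrain killing depending on the adaptor present. SLAMF8 and SLAMF9 have short tails without these motifs and are known mainly from myeloid cells.

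Library totals ranged from 10292480 to 13787189 counts, and 14761 genes were tested. Cd36 itself was at 109.7, 263 and 238 CPM (counts scaled to the size of the library) in CD36+ replicates 1, 2 and 3 and at 14.3, 31.7 and 17.1 CPM in CD36- replicates 1, 2 and 3, a log2 difference of 3.27 (SE 0.426, adjusted p = 0.00615, edgeR quasi-likelihood test). This is the direction of the sample titles, which were followed. In the table, the names of the CD36+ libraries have a double hyphen after CD36, which can be read as a minus sign. The names of the CD36- libraries have a single hyphen there, and no name has a plus sign. The sort was for NK cells, yet all 12 NK markers fell in the CD36+ fraction, and their summed level was 1200 to 1467 CPM there against 6302 to 8230 CPM in the CD36- fraction. The summed macrophage and Kupffer cell markers were at 6736 to 9368 CPM in CD36+ and 2472 to 5812 CPM in CD36- libraries. Lyz2, which overlapped between the fractions, made up most of the CD36- sums, and without it the sums were 2431 to 5882 against 420.0 to 1482 CPM. The summed B cell markers were at 4758 to 5295 CPM against 3131 to 3589 CPM, again without overlap. The part of these markers in the results below was not tested, and in bulk RNA a change in the number of cells of a type and a change in RNA per cell cannot be told apart.

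The 3 members whose transcripts passed the test were Slamf9, which rose in CD36+ cells, and Slamf7 and Cd244a, which fell. Their promoters, 250 bases before to 50 bases after the RefSeq start on GRCm38.p6, are shown because these are the genes on which the comparison turns. Capitals mark AGGAAG on the printed strand or its reverse complement CTTCCT, a word that contains the shorter core GGAA of ETS family transcription factors. Copies of GGAA outside this word are not marked. The windows are chr1:172475110-172475409 on the plus strand for Slamf9, chr1:171648950-171649249 on the minus strand for Slamf7 and chr1:171558943-171559242 on the plus strand for Cd244a.
Slamf9: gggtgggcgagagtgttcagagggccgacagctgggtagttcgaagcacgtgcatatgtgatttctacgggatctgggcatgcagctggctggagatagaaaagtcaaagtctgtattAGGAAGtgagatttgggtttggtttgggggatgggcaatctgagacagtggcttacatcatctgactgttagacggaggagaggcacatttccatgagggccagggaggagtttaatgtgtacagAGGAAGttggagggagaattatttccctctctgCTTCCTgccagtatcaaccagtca
Slamf7: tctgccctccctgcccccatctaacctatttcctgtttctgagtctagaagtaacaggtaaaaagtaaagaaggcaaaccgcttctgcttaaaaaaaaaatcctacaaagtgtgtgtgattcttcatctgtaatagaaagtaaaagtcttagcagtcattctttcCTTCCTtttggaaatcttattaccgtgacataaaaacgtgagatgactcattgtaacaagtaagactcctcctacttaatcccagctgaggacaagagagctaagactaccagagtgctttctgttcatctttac
Cd244a: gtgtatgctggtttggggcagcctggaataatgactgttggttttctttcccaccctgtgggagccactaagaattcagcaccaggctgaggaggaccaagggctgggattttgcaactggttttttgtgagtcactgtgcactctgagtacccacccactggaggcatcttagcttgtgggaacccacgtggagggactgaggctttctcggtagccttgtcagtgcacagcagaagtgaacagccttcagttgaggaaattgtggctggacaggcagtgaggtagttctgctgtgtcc

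The Slamf9 window held 3 such words, which begin 132 and 7 bases before the start and 27 bases after it. The Slamf7 window held 1, beginning 85 bases before the start, and the Cd244a window held none. Both of these windows also hold the shorter GGAA outside the word, which was not counted. Over the 8 members with a promoter in the RefSeq table, 5 held the word on either strand, against 35.4% of 32851 mouse promoters of the same length. The members with the word were Slamf9, Slamf1 (2 words), Slamf7, Cd84 and Cd48. The longer word GAGGAAGT, which contains AGGAAG and resembles the site bound by the myeloid and B cell factor PU.1, was found on either strand in the Slamf9 window alone of the 8 and in 3.20% of all promoters. The words TGTGGT (RUNX factors) and TCACACC (T-box factors) were each searched on both strands as well. TGTGGT was in the Cd84 and Cd48 windows and in 16.8% of all promoters, and TCACACC was in the Cd48 window and in 3.98% of all promoters. Neither GGGCGG (35.7% of all promoters) nor TATAAA (13.6%) was found in any of the 8. A match describes letters only, and says nothing of whether a factor binds there.

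Slamf9 rose 4.31-fold in the CD36+ fraction and was the only member to pass both an adjusted p below 0.05 and a change of more than 2-fold. It was counted 121, 232 and 193 times in CD36+ replicates 1, 2 and 3, or 10.8, 17.1 and 16.0 CPM, and 53, 32 and 33 times in CD36- replicates 1, 2 and 3, or 4.07, 2.83 and 3.22 CPM. Each CD36+ library was above each CD36- library. The means were 14.6 ± 3.38 and 3.38 ± 0.636 CPM (SD, n = 3 each), a log2 difference of 2.11 (SE 0.246, adjusted p = 0.00423, edgeR quasi-likelihood test). Over all tested genes, 2.98% were higher by the same rule and 2.98% lower.

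Slamf7, a self-binding receptor of NK cells and other lymphocytes, fell to a lower level in every CD36+ library, by 1.60-fold. It was at 79.1, 82.3 and 80.3 CPM in CD36+ replicates 1, 2 and 3 and at 123, 129.6 and 136 CPM in CD36- replicates 1, 2 and 3. The fractions did not overlap, and the CD36+ libraries lay within a narrow band. The means of 80.6 ± 1.62 and 129 ± 6.53 CPM (SD, n = 3 each) gave a log2 difference of -0.68 (SE 0.0807, adjusted p = 0.00444, edgeR). Slamf7 stayed past the threshold on the adjusted p in all 13 alternative fits, in which that p reached at most 0.0283.

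Cd244a, which encodes the CD48 receptor 2B4, fell 1.74-fold. It was at 84.6, 129.8 and 125 CPM in CD36+ replicates 1, 2 and 3 and at 175, 204 and 211 CPM in CD36- replicates 1, 2 and 3. No CD36+ library reached the lowest CD36- library, and CD36+ replicate 1 was the lowest of all. The means were 113 ± 24.8 and 197 ± 18.8 CPM (SD, n = 3 each), with a log2 difference of -0.80 (SE 0.174, adjusted p = 0.0327, edgeR). That p rose above 0.05, to between 0.0545 and 0.0930, when any library other than CD36+ replicate 1 was left out, with log2 differences of -0.75 to -0.91, while without CD36+ replicate 1 it was 0.0227 and the log2 difference -0.64. The table also places the span of Ly9 entirely within that of Cd244a on the other strand, over 18787 bases. The sources used here do not state whether counting used strand, so whether reads of the pair were counted apart there is not known.

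At the adjusted p alone, with no demand on fold, 1 member was higher and 2 were lower, against 5.07% and 5.44% of all tested genes, or 10.5% in either direction. DESeq2 gave the same counts of 1 and 2 members, against 8.48% and 7.24% of all tested genes with that tool. With the 2-fold rule 1 member was higher and 0 were lower, by edgeR and by DESeq2, and DESeq2 called 4.42% of all tested genes higher and 3.33% lower by that rule. At an unadjusted p below 0.05, 2 members were higher and 4 lower, against 14.2% and 12.1% of all tested genes. The median log2 difference over the 9 members was -0.13, beside 0.01 over all tested genes. The fractions did not overlap for 2 members that were higher in CD36+ cells (Slamf9 and Slamf8) and for 4 that were lower (Cd244a, Slamf7, Cd84 and Ly9). Over all tested genes, 17.0% were higher and 15.7% lower without overlap.

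**Figure D1:**
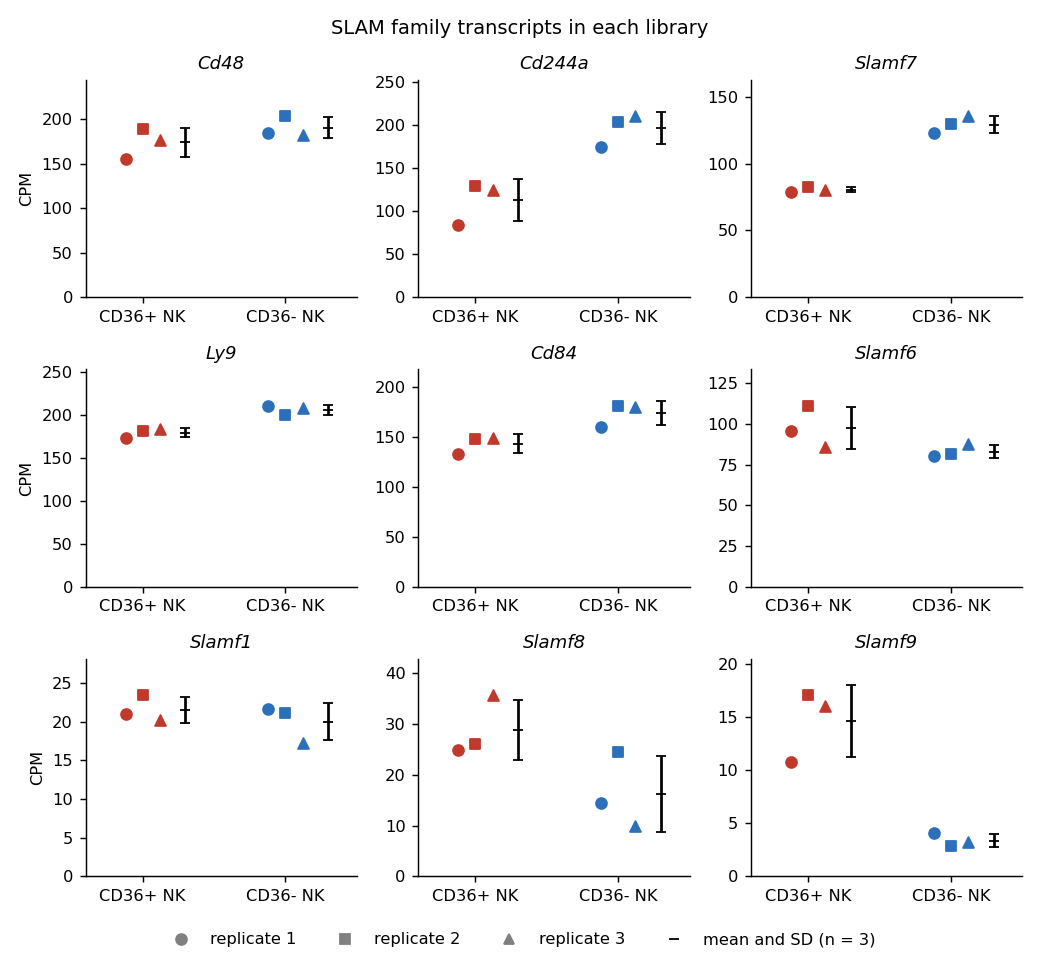
CPM of the 9 SLAM family genes in the 3 CD36+ (red) and 3 CD36- (blue) libraries, 1 panel a gene with its own axis from 0, each point a library and the black bar the mean with its SD (n = 3). Slamf9 lies at 10.8 to 17.1 CPM in CD36+ and 2.83 to 4.07 CPM in CD36- libraries, whereas Slamf1, Slamf6 and Cd48 overlap between the fractions.

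Slamf8, the other short-tailed member, is known for restraining the phagocyte NADPH oxidase. It was at 24.8, 26.0 and 35.6 CPM in CD36+ replicates 1, 2 and 3 and at 14.5, 24.4 and 9.86 CPM in CD36- replicates 1, 2 and 3. CD36- replicate 2 came close to the CD36+ libraries and the other CD36- libraries lay well below them. The means of 28.8 ± 5.91 and 16.2 ± 7.43 CPM (SD, n = 3 each) gave a log2 difference of 0.82 (SE 0.322), which did not pass the test (adjusted p = 0.158, edgeR). Without CD36- replicate 2 the log2 difference was 1.24 with an adjusted p of 0.0262 (edgeR). The 6 libraries stood in the same order for Slamf8 as for Csf1r, the receptor for a macrophage growth factor, which was at 1138, 1726 and 2342 CPM in CD36+ and at 411, 748 and 242 CPM in CD36- replicates 1, 2 and 3. This shared order was noticed after the values were seen, and Slamf9 did not have it.

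Cd84 and Ly9 are self-binding receptors found on many leukocytes. Cd84 was at 133, 148 and 149.6 CPM in CD36+ replicates 1, 2 and 3 and at 160.3, 182 and 180.1 CPM in CD36- replicates 1, 2 and 3. Its libraries did not overlap, but the log2 difference of -0.28 (SE 0.0956) did not pass the test (adjusted p = 0.115, edgeR). Ly9 was at 174, 181 and 184 CPM in CD36+ and at 211, 199.8 and 208 CPM in CD36- replicates 1, 2 and 3. The fractions again did not overlap, with a log2 difference of -0.20 (SE 0.0801, adjusted p = 0.165, edgeR).

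Cd48, the ligand of 2B4 and of CD2, was at 156, 189 and 177 CPM in CD36+ and at 185, 204 and 182 CPM in CD36- replicates 1, 2 and 3. The ranges overlapped, and the log2 difference was -0.13 (SE 0.104, adjusted p = 0.493, edgeR). Slamf6, a self-binding receptor of T, B and NK cells, was at 95.3, 111 and 86.0 CPM in CD36+ and at 80.1, 81.3 and 87.5 CPM in CD36- replicates 1, 2 and 3. Here too the ranges overlapped, with a log2 difference of 0.23 (SE 0.113, adjusted p = 0.246, edgeR). Slamf1 (CD150), the receptor that gave the family its name, had the smallest log2 difference of the 9 by size. It was at 21.0, 23.4 and 20.2 CPM in CD36+ and at 21.6, 21.1 and 17.3 CPM in CD36- replicates 1, 2 and 3, a log2 difference of 0.11 (SE 0.135, adjusted p = 0.685, edgeR).

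**Figure D2:**
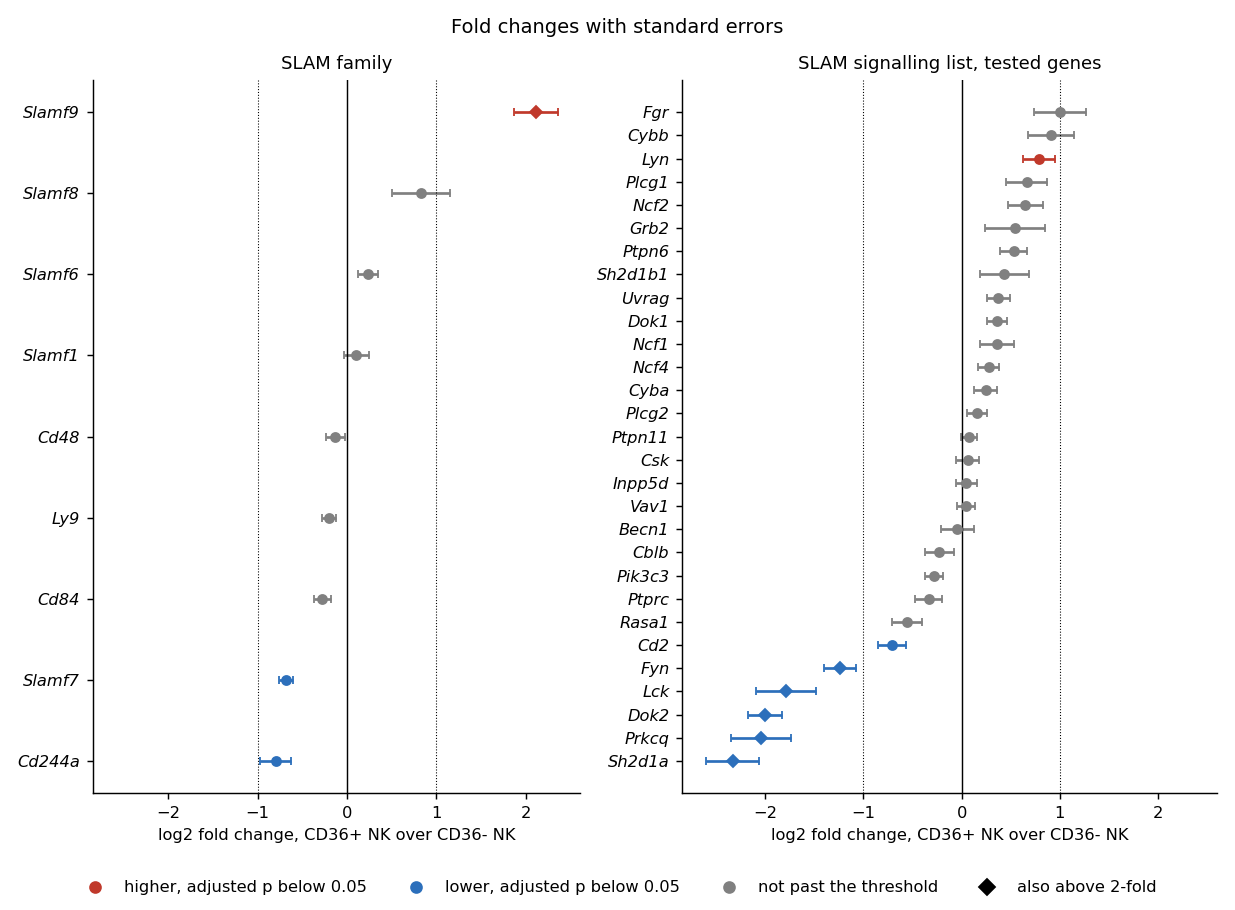
Log2 fold change (CD36+ over CD36-) of the 9 members and of the 29 tested SLAM signalling genes reported here, with standard errors from the edgeR fit on 3 libraries per fraction, coloured where the adjusted p was below 0.05 and drawn as diamonds where the change also passed 2-fold (dotted lines). Slamf9 lies at 2.11 and Cd244a and Slamf7 at -0.80 and -0.68, while Sh2d1a lies at -2.33 and Lyn at 0.78.

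Levels were compared between genes per length, as FPKM, fragments scaled by transcript length and library size, as deposited by the authors. In CD36+ cells the order was Cd48 (94.8 ± 7.91 FPKM), Ly9 (34 ± 0.324), Cd244a (21.0 ± 4.24), Cd84 (18.9 ± 0.808), Slamf7 (14.1 ± 0.402), Slamf9 (10.9 ± 2.35), Slamf8 (9.03 ± 1.60), Slamf6 (7.93 ± 1.13) and Slamf1 (3.33 ± 0.294; mean FPKM ± SD, n = 3 each). In that order the libraries of Cd244a and Cd84, of Slamf9 and Slamf8, and of Slamf8 and Slamf6 overlapped. In CD36- cells the order was Cd48 (106.8 ± 8.39 FPKM), Ly9 (40.1 ± 0.786), Cd244a (37.6 ± 3.55), Cd84 (23.6 ± 1.73), Slamf7 (23.2 ± 1.06), Slamf6 (6.93 ± 0.252), Slamf8 (5.28 ± 2.5), Slamf1 (3.18 ± 0.417) and Slamf9 (2.60 ± 0.478). There the libraries overlapped between Ly9 and Cd244a, Cd84 and Slamf7, Slamf6 and Slamf8, Slamf8 and Slamf1, and Slamf1 and Slamf9. Slamf9 was thus the last of the 9 by mean FPKM in CD36- cells and stood at rank 6 in CD36+ cells.

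The summed FPKM of the family was 214 ± 16.1 in CD36+ and 249 ± 13.6 in CD36- cells (SD, n = 3 each). Cd48 made up 44.3% ± 0.695 of that sum in CD36+ and 42.8% ± 1.36 in CD36- cells. Cd244a made up 9.74% ± 1.33 against 15.1% ± 1.17, and Slamf7 6.61% ± 0.522 against 9.33% ± 0.470. Slamf9 made up 5.07% ± 0.753 against 1.05% ± 0.238, and Slamf8 4.23% ± 0.751 against 2.09% ± 0.880. The remaining shares were 15.9% and 16.1% for Ly9, 8.87% and 9.47% for Cd84, 3.71% and 2.78% for Slamf6 and 1.56% and 1.27% for Slamf1.

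**Figure D3:**
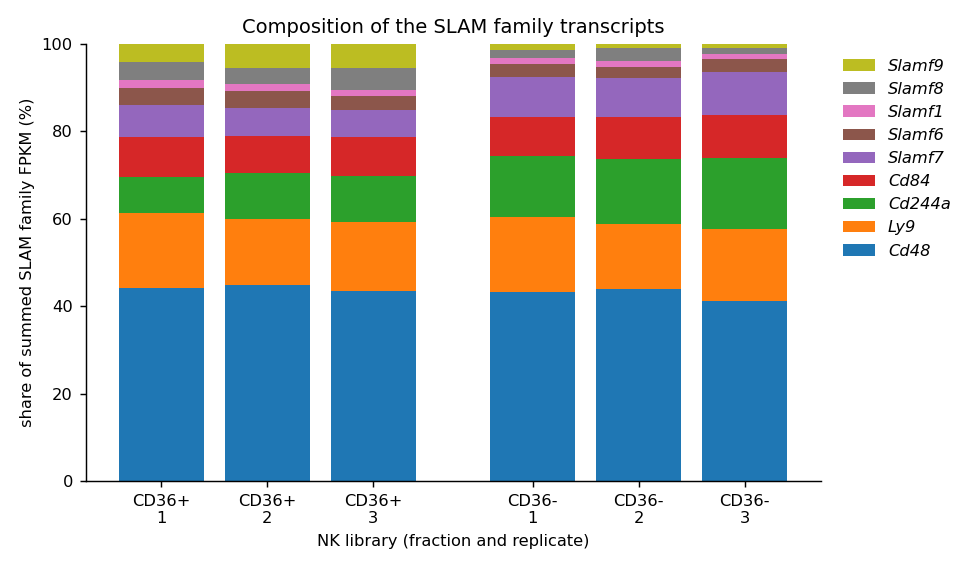
Stacked bars of the share of the summed family FPKM (percent) taken by each of the 9 members, 1 bar for each of the 3 CD36+ and 3 CD36- libraries. Cd48 takes 44.3% and 42.8% on average, and Slamf9 takes 5.07% in CD36+ against 1.05% in CD36- cells.

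The receptor-ligand pair was also set side by side as FPKM ratios within a library, which were chosen after the values were seen. The ratio of Cd244a to Cd48 was 0.185 to 0.240 in CD36+ and 0.323 to 0.395 in CD36- libraries, with no overlap and a log2 difference of -0.69 (exact two-sided permutation p = 0.1, the smallest that 3 against 3 allows). The ratio of Cd2 to Cd48 was 0.421 to 0.637 against 0.592 to 0.815 and overlapped (log2 difference -0.58, exact two-sided permutation p = 0.2). Cd2, the other CD48 receptor, was at 153, 127 and 115 CPM in CD36+ and at 232, 186 and 226 CPM in CD36- replicates 1, 2 and 3. It fell by 0.71 on the log2 scale (SE 0.141, adjusted p = 0.0243, edgeR).

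Of the adaptors that SLAM tails recruit, only SAP passed the test, and it was lower in CD36+ cells. Sh2d1a, which encodes SAP, was at 7.74, 5.96 and 3.57 CPM in CD36+ and at 26.1, 28.0 and 32.7 CPM in CD36- replicates 1, 2 and 3. Every CD36+ library was far below every CD36- library, with a log2 difference of -2.33 (SE 0.268, adjusted p = 0.00406, edgeR). Sh2d1b1, which encodes EAT-2, was at 33.6, 56.6 and 69.9 CPM in CD36+ and at 34.7, 41.5 and 42.2 CPM in CD36- replicates 1, 2 and 3. CD36+ replicate 1 fell below the CD36- libraries while the others lay above them, and the log2 difference of 0.44 (SE 0.252) did not pass the test (adjusted p = 0.331, edgeR). Without CD36+ replicate 1 it was 0.67 with an adjusted p of 0.0355 (edgeR). The FPKM ratio of Sh2d1a to Sh2d1b1 was 0.0774, 0.0353 and 0.0172 in CD36+ and 0.252, 0.227 and 0.260 in CD36- replicates 1, 2 and 3, a 6.81-fold lower ratio (exact two-sided permutation p = 0.1). Sh2d1b2, the second EAT-2 gene of the mouse, had 0, 5 and 6 counts against 16, 7 and 16, lower in CD36+ libraries without overlap in CPM, and was too low to test.

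The SLAM signalling genes reported here numbered 30, of which 29 could be tested. By the adjusted p and a change of more than 2-fold, 0 of these 29 were higher in CD36+ cells and 5 were lower (Sh2d1a, Fyn, Lck, Prkcq and Dok2), by edgeR and by DESeq2. Of all tested genes edgeR called 2.98% in each direction by that rule, and DESeq2 4.42% higher and 3.33% lower. At the adjusted p alone Lyn rose and Cd2 also fell with edgeR, which made 1 higher and 6 lower. Over all tested genes edgeR gave 5.07% higher and 5.44% lower. DESeq2 gave 7 higher and 7 lower at the adjusted p alone, against 8.48% and 7.24% of all tested genes. At an unadjusted p below 0.05 (edgeR) 9 were higher and 9 lower, against 14.2% and 12.1% of all tested genes. Their median log2 difference was 0.08, against 0.01 for all tested genes. Among the 29, 10 were higher and 9 lower without overlap between the fractions, against 17.0% and 15.7% of all tested genes.

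Of the 5 kinases reported here, 2 were called lower with edgeR (Fyn and Lck), against 2.98% of all tested genes. Another 1, Lyn, rose by less than 2-fold with edgeR, and 5.07% of all tested genes were higher at the adjusted p alone. Fyn, the kinase that SAP recruits, was at 170.3, 176 and 186 CPM in CD36+ and at 363, 363 and 529 CPM in CD36- replicates 1, 2 and 3 (log2 difference -1.24, SE 0.163, adjusted p = 0.00631, edgeR). Lck, a kinase of T and NK cells, was at 189, 94.9 and 84.7 CPM against 443, 364 and 463 CPM (log2 difference -1.78, SE 0.307, adjusted p = 0.0150, edgeR), and its call was lost without CD36+ replicate 2, CD36- replicate 1 or CD36- replicate 3. Both were lower in every CD36+ library, and the highest CD36+ value of Lck was that of replicate 1, the library in which the T cell gene Cd3e was at 27.0 CPM against 0.08 to 1.06 CPM in the other 5. Lyn, a Src family kinase of B and myeloid cells, rose from 306 ± 44.2 to 527 ± 87.5 CPM (SD, n = 3 each; log2 difference 0.78, adjusted p = 0.0266, edgeR), and with replicate number as a block its adjusted p was 0.0664 (edgeR). Fgr, another myeloid Src family kinase, had a log2 difference of 1.00, which did not pass with edgeR (adjusted p = 0.0538) and did with DESeq2 (adjusted p = 0.00151).

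Among the 9 downstream effectors 2 were called lower and 0 higher by edgeR and by DESeq2, and at an unadjusted p below 0.05 (edgeR) 3 were lower and 2 higher. Over all tested genes edgeR called 2.98% in each direction, and 12.1% were lower and 14.2% higher at that unadjusted p. Dok2, an adaptor that dampens signalling in blood cells, was at 64.5, 54.2 and 45.3 CPM in CD36+ and at 241, 179 and 237 CPM in CD36- replicates 1, 2 and 3 (log2 difference -2.0, SE 0.172, adjusted p = 0.00135, edgeR). Prkcq, protein kinase C theta of T and NK cells, was at 37.4, 20.8 and 17.0 CPM against 95.9, 86.5 and 127 CPM (log2 difference -2.04, SE 0.304, adjusted p = 0.00923, edgeR). By edgeR and by DESeq2, 0 of the 4 phosphatases were called at more than 2-fold, and at an unadjusted p below 0.05 (edgeR) 1 was higher and 1 lower. Ptpn6, which encodes the phosphatase SHP-1, was at 633 ± 27.1 CPM in CD36+ and 438 ± 71.9 CPM in CD36- cells (SD, n = 3 each; log2 difference 0.53, adjusted p = 0.0512 with edgeR and 0.00507 with DESeq2). Of the 8 oxidase and phagosome genes, the setting in which SLAM receptors act in macrophages, 6 had positive log2 differences, and the range was -0.28 to 0.91. At the adjusted p, 0 passed with edgeR and 2 were higher with DESeq2, where 5.07% and 8.48% of all tested genes were higher. At an unadjusted p below 0.05 (edgeR) 4 of the 8 were higher and 1 lower. The highest was Cybb, the membrane subunit of the oxidase, at an adjusted p of 0.0501 (edgeR).

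The members were also read against the NK markers measured in the same libraries. All 12 were lower in CD36+ cells, with a median log2 difference of -2.45. Ncr1, which encodes the NK receptor NKp46, was at 69.8, 97.6 and 67.3 CPM in CD36+ and at 394, 419 and 455 CPM in CD36- replicates 1, 2 and 3. Relative to the mean log2(CPM + 2) of the NK markers in its own library, each of the 9 SLAM genes was higher in CD36+ cells without overlap. The log2 differences ran from 1.58 for Cd244a and 1.72 for Slamf7 to 3.21 for Slamf8 and 4.0 for Slamf9, with a median of 2.26. Of all tested genes 99.3% were likewise higher without overlap, and their median was 2.40. Ptprc (CD45), which all leukocytes carry, was at 1668 ± 184 CPM in CD36+ and 2105 ± 285 CPM in CD36- cells (SD, n = 3 each), without overlap but with a log2 difference of -0.34 that did not pass the test (adjusted p = 0.173, edgeR). Relative to Ptprc the median over the 9 was 0.20, below the 0.34 of all tested genes, with -0.47 for Cd244a, -0.34 for Slamf7, 1.15 for Slamf8 and 1.95 for Slamf9.

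**Figure D4:**
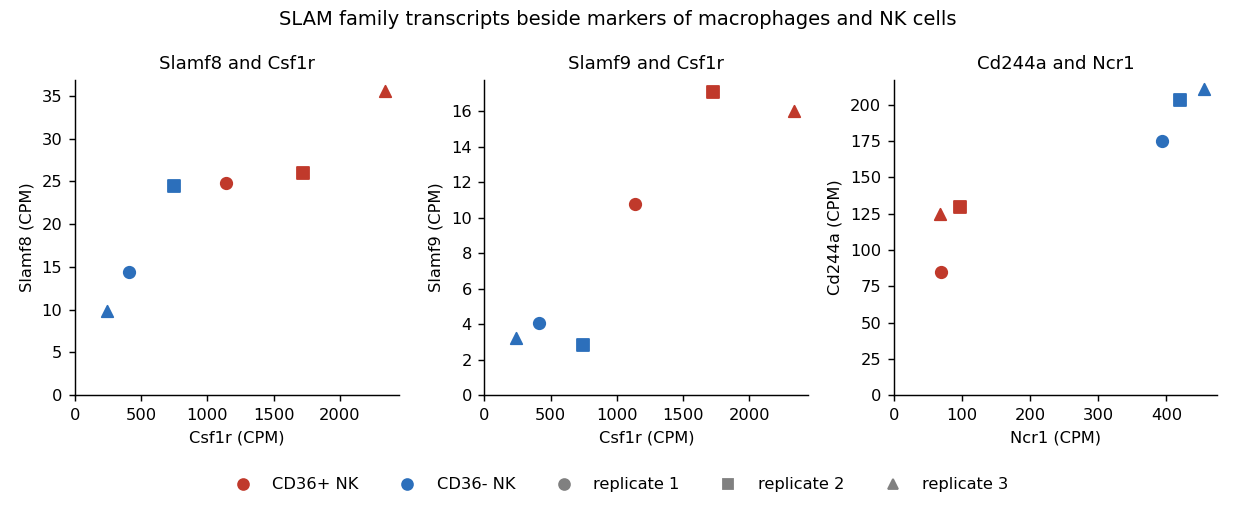
CPM of Slamf8 and Slamf9 against Csf1r and of Cd244a against Ncr1, each point 1 of the 3 CD36+ (red) or 3 CD36- (blue) libraries and each shape a replicate number, on linear axes from 0. The CD36+ libraries lie to the right of the CD36- libraries for Csf1r and to the left for Ncr1, and Slamf8 takes the libraries in the order of Csf1r.

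The other marker lists had these values. Of the macrophage and Kupffer cell markers, 4 of 10 tested were called higher with edgeR (Marco, Adgre1, Csf1r and Cd68) and 8 with DESeq2, which added Cd5l, C1qa, C1qb and C1qc, against 2.98% and 4.42% of all tested genes. Their median log2 difference was 2.89 (edgeR). Clec4f, a Kupffer cell marker too low to test, was at 1.51, 45.9 and 0 CPM in CD36+ replicates 1, 2 and 3 and at 0 in each CD36- library. Of the 8 B cell markers 5 rose with edgeR and 6 with DESeq2 at the adjusted p alone, against 5.07% and 8.48% of all tested genes. Of these B cell markers 1, Cr2, rose by more than 2-fold with either. The T cell markers summed to 37.7 to 343 CPM against 66.2 to 147 CPM, the 343 CPM being CD36+ replicate 1. Cd4 and Cd8a were called higher with either tool, with their highest values, 51.4 and 63.2 CPM, in CD36+ replicate 1. Cd28 of the same list was at 51.2, 11 and 20.8 CPM in CD36+ and at 77.4, 38.0 and 122 CPM in CD36- replicates 1, 2 and 3, which overlapped (log2 difference -1.52, adjusted p = 0.163, edgeR). Monocyte markers (493 to 1019 against 835 to 1367 CPM) and ILC1 markers (54.0 to 102 against 93.6 to 116 CPM) overlapped, as did plasmacytoid dendritic cell markers (98.5 to 126 against 69.7 to 119 CPM). Among these lists Cd14 was called higher and Ccr2 lower with either tool, and the ILC1 markers Itga1 and Tnfsf10 fell by less than 2-fold. Cox6a2 was called lower with edgeR alone, and Ly6c2 and F13a1 lower and Ccr9 higher with DESeq2 alone. Dendritic cell markers were at 458 to 520 against 609 to 813 CPM. Of that, Itgax alone was at 197 to 255 against 415 to 611 CPM. Of the 7 dendritic cell markers 5 had positive and 2 negative log2 differences. Xcr1 and Clec9a were called higher and Itgax lower with either tool. Sinusoidal endothelial markers were at 212 to 306 against 153 to 169 CPM. Pecam1 made up most of each sum, at 178 to 214 against 149 to 153 CPM, while Clec4g, Lyve1 and Kdr were at 0 to 1.16 CPM. Pecam1 was past the adjusted p at less than 2-fold with either tool, and Stab2 was called higher with DESeq2 alone. Hepatocyte markers were at 1.41 to 9.56 against 0 to 0.692 CPM. No marker was at 0 in all libraries.

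All 9 members lie on chromosome 1, and by the coordinates of the table, which names no genome build, they span 171386761 to 172418135. From Cd244a (171386761 to 171437314, plus strand) the order is Ly9, Slamf7, Cd48, Slamf1, Cd84 and Slamf6, all within 394 kb. Slamf9 (172302925 to 172306142, plus strand) begins 522 kb beyond Slamf6 and is followed by Slamf8 (172409325 to 172418135, minus strand). These positions are not on the build of the promoter windows and cannot be set beside them. The genes lower at the adjusted p, Cd244a and Slamf7 (171459971 to 171480603, minus strand), are in the first group and Slamf9 in the second. Of 44 other genes in the interval 20 could be tested, and their median log2 difference was 0.03. Igsf9, an adhesion gene of the immunoglobulin superfamily that begins 3.21 kb beyond Slamf9, was the only one called. It was at 8.81, 8.90 and 6.48 CPM in CD36+ and at 3.77, 3.63 and 4.20 CPM in CD36- replicates 1, 2 and 3 (log2 difference 1.06, SE 0.203, adjusted p = 0.0219, edgeR). Tagln2 passed at less than 2-fold, with a log2 difference of -0.70 (adjusted p = 0.0342, edgeR). Of the 20 tested, 1 was thus called and 2 passed the adjusted p. Over all tested genes these shares were 5.96% and 10.5% in either direction (edgeR).

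The genes most like each member across the 6 libraries were found by the root mean square distance of centred log2(CPM + 2) values. The nearest to Slamf9 were Col4a2 at 0.130 and Ptprj at 0.159, and the nearest to Slamf8 were Nrp1 at 0.0793 and Stard5 at 0.0861. The nearest to Cd244a were Scarf2 at 0.0757 and Chpt1 at 0.0811, and the nearest to Slamf7 were Sfxn3 at 0.0280 and Gm28836 at 0.0363. The distance depends on the added 2 CPM, and a gene near a member by it can have another fitted log2 difference, as Gm28836 (-4.29), Col4a2 (2.88) and Scarf2 (-1.25) had. For the 5 other members the nearest gene lay between 0.0134 (Cggbp1 to Cd48) and 0.0397 (Kbtbd8 to Slamf6). Within the family, Slamf7 was the nearest member to Cd244a at a distance of 0.198, Ly9 to Cd84 at 0.0908 and Slamf8 to Slamf9 at 0.581. The short-tailed pair were further apart than Cd244a and Slamf7, with 6 libraries behind each distance and no test of it.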

How the data were processed

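RNA from liver cells sorted as CD3- NK1.1+ and by CD36 was sequenced by the authors, who trimmed reads with Seqtk, aligned them with HISAT2 2.0.4 and quantified genes with StringTie. The submitters' processing notes list mRatBN7.2, a rat assembly, although gene identifiers are those of mouse, and the table names no build. The authors deposited counts per gene and FPKM per gene in 1 table, and broken lines of 2 genes were rejoined. Groups follow sample titles (3 CD36+, 3 CD36-). The number of sample columns left unused was 0.

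Counts of genes with enough reads (edgeR's filterByExpr, 14761 genes) were scaled by TMM and tested with edgeR 4.0.16 (quasi-likelihood, R 4.3.3) with Benjamini-Hochberg adjustment over all tested genes, and calls needed an adjusted p below 0.05 and a change of more than 2-fold. CPM values use the same scaling. FPKM served for levels between genes and ratios. Library totals were 10292480 to 13787189 counts, and the biological coefficient of variation was 20.3%. The code was tested on simulated data. Alternatives were DESeq2 1.42.0, other scalings (RLE, upper quartile), other filters and folds, replicate blocks, a pseudocount of 0.5 CPM in place of 2 and leaving out each library.

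One gene of the signalling list is not reported here and is left out of its counts. All 9 members are named, with signalling genes past the adjusted p, the markers and the 2 nearest genes. Ratios and order comparisons were added after values were seen, and members and lists were chosen with earlier results of these data known. The p-values measure the spread between these libraries, which the series calls biological triplicates. Promoter sequences are from RefSeq (GRCm38.p6) and matched 8 of 9 members by symbol.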

Additional observations from a re-analysis of the deposited data

How the results depend on the processing

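Over the alternatives tried, the log2 differences of the 9 members gave 117 values, of which 111 kept direction and side of the threshold, 5 lost the threshold (Cd244a with 1 library left out), 1 gained it (Slamf8 without CD36- replicate 2) and 0 reversed. The members called higher numbered 1 to 2 with 1 library left out, and 2 were lower at any fold. Signalling genes reported here and called higher numbered 0, 1 at any fold and 0 to 2 with 1 library left out, the 2 being Cybb and Fgr without CD36+ replicate 1 or CD36- replicate 2. Those called lower numbered 5, 3 beyond 4-fold and 4 to 5 with 1 library left out, Lck being lost without CD36+ replicate 2, CD36- replicate 1 or CD36- replicate 3. Over all genes, 440 were higher and 440 lower. Higher calls numbered 221 with replicate number as the block (475 with the form of the library name as the block, beside 437 lower), 749 at any fold, 182 beyond 4-fold and 94 (without CD36- replicate 1) to 708 (without CD36- replicate 2) with 1 library left out. Lower calls numbered 803 at any fold, 194 beyond 4-fold and 288 to 554 with 1 library left out. The median relative to NK markers was 2.26, 2.13 to 2.40 with 1 library left out, and 0.20 relative to Ptprc. The cause of these changes was not tested. Same-numbered libraries deviated together with correlations of 0.367, 0.0871 and -0.0860, and 2 of 6 correlated best with their own number, so the numbers were not taken as pairs. With the block, Slamf9, Slamf7 and Cd244a had adjusted p of 0.0279, 0.0217 and 0.0263 (edgeR), and no member's call changed. Among signalling genes Lyn lost the adjusted p alone (0.0664) and Rasa1 gained it (0.0373). Slamf9 had 32 to 232 counts per library, and 3 libraries a fraction limit all tests.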
